A study of Mus musculus with 15 samples.

Results

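Neuropeptides are short signalling molecules that neurons cut out of longer precursor proteins, pack into dense core granules and release beside a fast transmitter, to act on G-protein coupled receptors of other cells. In the cerebral cortex several of their precursors are known as marks of inhibitory interneurons, the opioid precursors are abundant in the striatum that lies beneath it, and cholecystokinin is made by pyramidal cells as well. Their transcripts are among the shorter and more abundant messenger RNAs of the brain.

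The 10 precursor genes *Sst*, *Npy*, *Vip*, *Cck*, *Tac1*, *Crh*, *Cort*, *Penk*, *Pdyn* and *Pnoc* were taken by symbol from an RNA-seq table of mouse cortex. They are 10 of its 23235 genes, and all 10 averaged 1 FPKM or more over the groups, as did 10297 genes in all, which are called expressed genes here. A gene that is low in the other groups can pass this limit through 1 high group. FPKM counts fragments per length of transcript and per amount of mapped sequence. It is a level per length. Differences between the groups varied with transcript length, as given below, so levels of short and long transcripts can be compared only roughly. The rule is a list of symbols, which was drawn up with earlier results of these data known.

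The table covers brain cortex of adult male mice in 4 groups. At Zt+6 there were 3 WT mice (C57BL/6J) and 2 *Snord116del* (+/-) mice (strain B6(Cg)-Snord116tm1.1Uta/J), and at Zt+16 there were 2 of each genotype. The *Snord116del* mice lacked the *Snord116* cluster on the chromosome from the father, in every tissue, and the WT mice were their littermates. All had the same chow and light cycle. Zt stands for zeitgeber time, the hours since the lights came on. Zt+6 falls in the light hours and Zt+16 in the dark hours. The authors deposited 1 FPKM per gene and group, with the mice of a group combined. The spread between mice therefore cannot be seen, no test, SD or SE can be given, and the depth behind a value is not in the table. A gene is called higher or lower below when FPKM + 1 differed by at least 1.5-fold (0.58 on the log2 scale) with 1 FPKM or more in the higher group. Log2 changes are of FPKM + 1, a scale that understates the change of low genes. The labels of both *Snord116del* mice and of 1 of the 3 WT mice at Zt+6 name an earlier version of the table than those of the other 6 mice, and the part of this in the differences was not tested.

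Markers of the labelled tissue were present. Of the excitatory cortical markers, *Slc17a7*, a vesicular glutamate transporter, was at 60.3 to 127 FPKM and *Camk2a*, a kinase of excitatory neurons, at 146 to 688 FPKM. Markers of neighbouring regions were measured as well. *Ttr*, a choroid plexus transcript, was at 199.8 and 182 FPKM in WT and *Snord116del* at Zt+6 and at 24.9 and 29.6 FPKM at Zt+16. In bulk tissue, fewer cells that make a peptide and less transcript per cell cannot be told apart.

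Promoters are shown for the 4 genes that were lower in *Snord116del* at Zt+6 and for *Pdyn*, which was higher, since these differ in direction. The letters are the 150 bases before the start site in RefSeq (GRCm38.p6), which had an entry for 7 of the 10 genes and none for *Crh*, *Penk* and *Pnoc*. Capitals mark a cyclic AMP response element (CRE, TGACGTCA), its short form (TGACG or CGTCA) or an E-box of the clock type (CACGTG). All 5 genes read on the minus strand except *Tac1*. The windows are chr16:23890845-23890994 for *Sst*, chr4:149126764-149126913 for *Cort*, chr9:121495695-121495844 for *Cck*, chr6:7554911-7555060 for *Tac1* and chr2:129699939-129700088 for the first start site of *Pdyn*.
Sst: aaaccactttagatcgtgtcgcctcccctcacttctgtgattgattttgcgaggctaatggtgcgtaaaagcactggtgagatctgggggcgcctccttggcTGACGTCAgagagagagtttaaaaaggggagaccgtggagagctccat
Cort: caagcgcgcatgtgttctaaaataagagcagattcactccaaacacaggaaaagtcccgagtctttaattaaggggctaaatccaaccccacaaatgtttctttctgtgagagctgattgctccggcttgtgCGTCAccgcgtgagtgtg
Cck: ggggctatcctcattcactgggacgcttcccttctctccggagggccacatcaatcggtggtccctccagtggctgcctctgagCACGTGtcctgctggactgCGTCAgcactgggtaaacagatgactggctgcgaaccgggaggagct
Tac1: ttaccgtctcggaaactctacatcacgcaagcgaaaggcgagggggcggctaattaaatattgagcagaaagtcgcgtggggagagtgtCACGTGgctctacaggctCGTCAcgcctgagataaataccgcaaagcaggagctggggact
Pdyn: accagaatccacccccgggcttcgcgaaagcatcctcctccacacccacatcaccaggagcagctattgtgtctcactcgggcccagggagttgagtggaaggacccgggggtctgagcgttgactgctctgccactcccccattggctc

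Motifs were searched on both strands from 250 bases before to 50 bases after each start site. *Sst* held the whole CRE, which begins 48 bases before its start site. Of the 7 genes with an entry, 1 held a CRE, against 3.12% of 9661 promoters of expressed genes. The short form, which the whole CRE also contains, was in 5 of the 7 (*Sst*, *Vip*, *Cck*, *Tac1* and *Cort*), against 31.2% of those promoters. The E-box was in 2 of the 7, *Cck* and *Tac1*, against 10.2%. The TATA motif TATAAA was in 1, *Vip*, against 6.8%. A match describes letters only, and the promoter of *Pdyn* shows that none of the 3 motifs in capitals lies in the printed window.

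**Figure D1:**
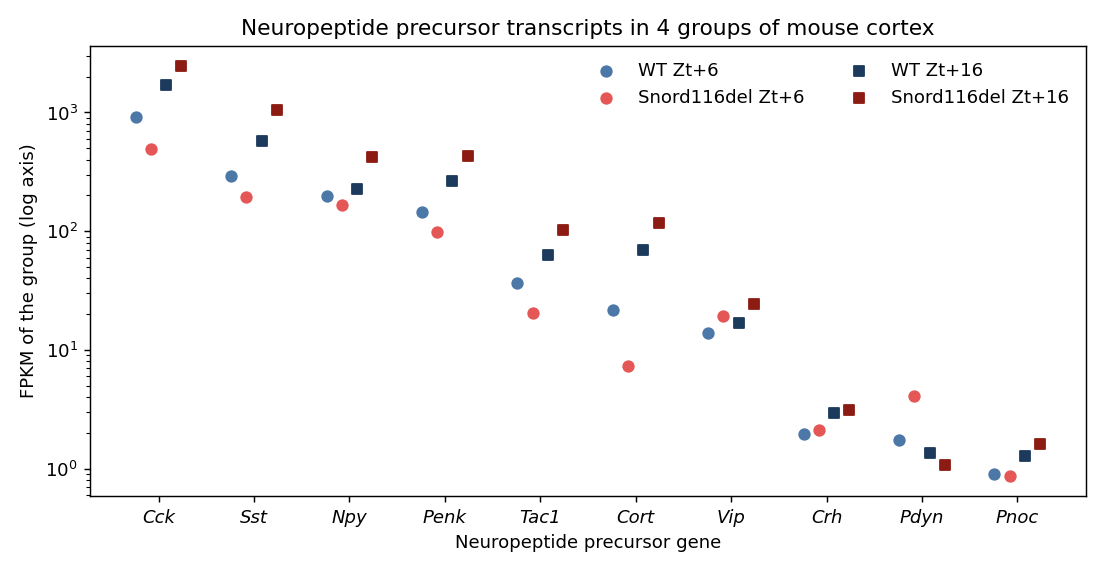
FPKM (log axis) of the 10 precursor genes, ordered by mean level, in WT (blue) and *Snord116del* (red) cortex at Zt+6 (circles) and Zt+16 (squares). Each point is the authors' single value for a group, so there are no error bars; *Cck*, *Sst*, *Npy*, *Penk*, *Tac1* and *Cort* have their lowest value in *Snord116del* at Zt+6 and their highest in *Snord116del* at Zt+16, and *Pdyn* has the reverse order.

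The 10 genes spanned from 0.871 FPKM (*Pnoc*) to 2444 FPKM (*Cck*). *Cck* was the most abundant and *Sst* the next in each of the 4 groups. *Npy* followed at Zt+6 and *Penk* at Zt+16, in both genotypes. *Crh*, *Pdyn* and *Pnoc* filled the last 3 places in every group. Together the 10 genes summed to 1638 FPKM in WT and 1003 FPKM in *Snord116del* at Zt+6, and to 2920 and 4603 FPKM at Zt+16. As a share of the FPKM of all genes this was 1.03% and 0.626% at Zt+6, and 1.35% and 1.34% at Zt+16. The share was thus lowest in *Snord116del* at Zt+6 and nearly the same for both genotypes at Zt+16, where the FPKM of all genes summed to more in *Snord116del* (342188) than in WT (216422).

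*Sst* (chromosome 16, 23889667 to 23890930, mm9, minus strand) codes for somatostatin, which inhibits hormone release and marks a main class of interneurons that contact dendrites. It was at 291 FPKM in WT and 193 FPKM in *Snord116del* at Zt+6, and at 571 FPKM in WT and 1055 FPKM in *Snord116del* at Zt+16. The *Snord116del* value was the lower one at Zt+6 and the higher one at Zt+16, with log2 changes of -0.59 and 0.89, both past the fold. Within *Snord116del*, *Sst* was 5.47-fold higher at Zt+16 than at Zt+6, against 1.96-fold in WT.

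*Cort* (chromosome 4, 148499143 to 148500872, minus strand) codes for cortistatin, a relative of somatostatin that binds the same receptors and is named for its place in the cortex and its link to sleep. It was at 21.7 FPKM in WT and 7.35 FPKM in *Snord116del* at Zt+6, and at 69.6 and 116 FPKM at Zt+16. This was the widest span of the 10 genes: the *Snord116del* value was 2.95-fold lower at Zt+6 and 1.67-fold higher at Zt+16, and within *Snord116del* it was 15.8-fold higher at Zt+16. Of all expressed genes, 1.06% had a smaller log2 change than *Cort* in *Snord116del* at Zt+6.

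*Npy* (chromosome 6, 49772709 to 49779506, plus strand) codes for neuropeptide Y, which in the hypothalamus drives feeding and in the cortex marks a group of interneurons. It was at 199.9 FPKM in WT and 167 FPKM in *Snord116del* at Zt+6, a log2 change of -0.26, which was not called. At Zt+16 it was at 229 and 426 FPKM, a log2 change of 0.89. Of *Sst*, *Cort* and *Npy*, all higher in *Snord116del* at Zt+16, *Npy* alone was not called lower at Zt+6.

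*Vip* (chromosome 10, 4698927 to 4707323, minus strand in mm9) codes for vasoactive intestinal peptide, which marks interneurons that inhibit other interneurons and which, in the suprachiasmatic nucleus, keeps clock cells in step. It was at 13.8 FPKM in WT and 19.2 FPKM in *Snord116del* at Zt+6, and at 16.9 and 24.5 FPKM at Zt+16. The log2 changes of *Vip* in *Snord116del* were 0.45 and 0.52, and neither passed the fold. Under 3 of 11 other settings at each time the *Snord116del* value was the lower one, with changes of -0.34 at Zt+6 with the groups scaled to the same median and -0.11 at Zt+16 with the groups scaled to the same total. *Crh* (chromosome 3, 19593401 to 19595396, minus strand), the precursor of corticotropin-releasing hormone, which starts the stress response and is also made by some interneurons, was at 1.97 and 2.14 FPKM at Zt+6 and at 2.92 and 3.13 FPKM at Zt+16. Its genotype differences were 0.080 and 0.076 on the log2 scale, the ones closest to each other among the 10 genes.

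*Cck* (chromosome 9, 121398943 to 121404807, minus strand) codes for cholecystokinin, a satiety hormone of the gut that in the cortex is made by basket interneurons and by pyramidal cells. It was at 925 FPKM in WT and 491 FPKM in *Snord116del* at Zt+6, a 1.88-fold lower value. At Zt+16 it was at 1702 FPKM in WT and 2444 FPKM in *Snord116del*, a log2 change of 0.52, which was not called. *Tac1* (chromosome 6, 7505071 to 7512973, plus strand), which codes for substance P and neurokinin A, was at 36.6 and 20.4 FPKM at Zt+6 and at 62.8 and 102 FPKM at Zt+16. Its log2 changes in *Snord116del* were -0.81 at Zt+6 and 0.70 at Zt+16, both past the fold.

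Of the 3 opioid-family precursors, *Penk* (chromosome 4, 4060678 to 4065966, minus strand) codes for the enkephalins and is abundant in the indirect-pathway neurons of the striatum. It was at 145 FPKM in WT and 98.0 FPKM in *Snord116del* at Zt+6, and at 264 and 429 FPKM at Zt+16. Its log2 change of -0.56 at Zt+6 lay just outside the fold, where that of *Sst* (-0.59) lay just inside it, and at Zt+16 its change of 0.70 was past the fold. The gene lies over a long non-coding RNA gene on the other strand, and reads of both cannot be told apart without strand. *Pdyn* (chromosome 2, 129512301 to 129525580, minus strand) codes for dynorphin and is abundant in the direct-pathway neurons of the striatum. It was at 1.76 FPKM in WT and 4.08 FPKM in *Snord116del* at Zt+6, a 2.32-fold higher value, and at 1.35 and 1.07 FPKM at Zt+16. *Pdyn* was the one gene of the 10 that was called higher in *Snord116del* in the light phase, and the one with a lower value in *Snord116del* in the dark phase. *Pnoc* (chromosome 14, 66019510 to 66044046, minus strand), the precursor of nociceptin, was at 0.896 and 0.871 FPKM at Zt+6 and at 1.28 and 1.63 FPKM at Zt+16, and it passed the fold in no comparison.

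The first comparison asks what the loss of *Snord116* goes with in the light phase. At Zt+6, 4 of the 10 precursors (*Sst*, *Cck*, *Tac1* and *Cort*) were lower in *Snord116del* and 1 (*Pdyn*) was higher. Over all expressed genes, 7.62% were lower and 49.3% were higher. By longest transcript, 43.8% of genes under 1 kb (as *Sst*, *Cck* and *Cort* are) were lower and 15.4% of those of 1 to 2 kb (as *Tac1* is). The median log2 change of the 10 genes was -0.41, and that of all expressed genes was 0.57. Set against that median, *Sst* was at -1.17, *Cck* at -1.48, *Tac1* at -1.38, *Cort* at -2.01 and *Penk* at -1.13, while *Pdyn* was at 0.31. *Sst*, *Cck*, *Tac1*, *Cort* and *Penk* were lower in *Snord116del* as deposited and under 10 of 11 other settings, and higher with the groups scaled to the same level of *Slc32a1*. *Slc32a1* was itself at -1.63 on the log2 scale, with 0.67% of expressed genes below it. Scaling to it left 9863 of the 10297 expressed genes called higher, so that reversal is not particular to the precursors. The calls were less stable than the directions. *Sst* and *Cck* were not called with quantile normalization, and of the 4 lower genes only *Cort* was called with a fold of 2 or without the trend on transcript length. *Pdyn* was not called higher at the same median, with quantile normalization, with a fold of 2, scaled to *Gad1* and *Gad2*, or without the trend on length or GC content.

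At Zt+16, 5 of the 10 precursors (*Sst*, *Npy*, *Tac1*, *Cort* and *Penk*) were higher in *Snord116del* and 0 were lower. Of all expressed genes, 19% were higher and 0.204% were lower. Among genes under 1 kb (as *Sst*, *Npy* and *Cort* are) 51.4% were higher, and among those of 1 to 2 kb (as *Tac1* and *Penk* are) 34.7%. The median log2 change was 0.61 for the 10 genes and 0.35 for all. *Sst* and *Npy* stood 0.53 and 0.54 above that median, and 97.1% and 97.3% of genes had a smaller change. *Pdyn* was at -0.18, with 0.592% of genes below it. None of the 10 genes kept a call at this time when the groups were scaled to the same median or the same total or quantile normalized, when the trend on transcript length or on GC content was removed, when the groups were scaled to the same *Slc32a1*, or with a fold of 2. The 5 higher genes kept their direction under each of these but the scaling to *Slc32a1*, under which all 5 had the lower value.

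**Figure D2:**
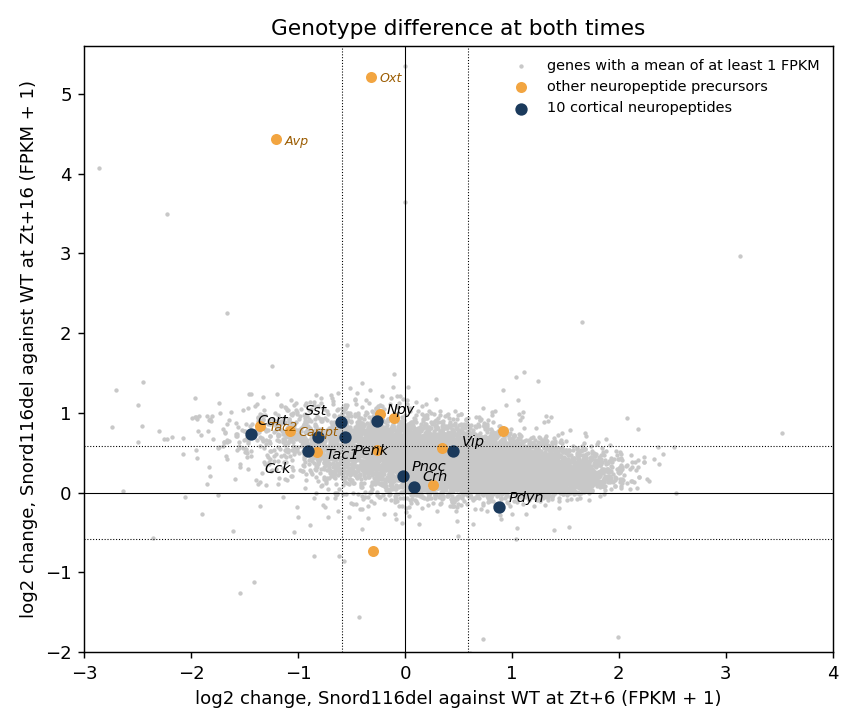
Log2 change of FPKM + 1 between *Snord116del* and WT at Zt+6 (x axis) and Zt+16 (y axis) for the 10 precursor genes (blue), other neuropeptide precursors (orange) and all expressed genes (grey); dotted lines mark the 1.5-fold limit. *Sst*, *Tac1* and *Cort* lie left of the limit on the x axis and above it on the y axis, and *Pdyn* lies on the opposite side of both axes. With the groups scaled to *Slc32a1*, itself lower at Zt+6 and higher at Zt+16, the directions of *Sst*, *Tac1* and *Cort* reverse at both times.

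The genotype comparisons at the 2 times share no group, so the change at one can be set against the other. The log2 change at Zt+16 minus that at Zt+6 was 2.18 for *Cort*, 1.51 for *Tac1*, 1.48 for *Sst*, 1.43 for *Cck*, 1.26 for *Penk* and 1.15 for *Npy*. It was 0.22 for *Pnoc*, 0.072 for *Vip*, -0.0033 for *Crh* and -1.06 for *Pdyn*. *Sst*, *Tac1* and *Cort* were called at both times and in opposite directions. These differences of changes have no replicate check.

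The comparison of times asks how the transcripts moved between the light and the dark phase in each genotype. In WT, 5 of the 10 precursors (*Sst*, *Cck*, *Tac1*, *Cort* and *Penk*) were higher at Zt+16 and 0 were lower, while 5.71% of all expressed genes were higher and 10.3% lower. Among genes under 1 kb 27.3% were higher, and among those of 1 to 2 kb 11.4%. *Cort* was 3.20-fold higher, *Sst* 1.96-fold, *Cck* 1.84-fold, *Penk* 1.82-fold and *Tac1* 1.72-fold. The ratio of Zt+16 to Zt+6 was 1.14 for *Npy* and 1.22 for *Vip*, and neither passed the fold. The median log2 change was 0.58 for the 10 genes and -0.038 for all. Between 98.0% (*Tac1*) and 99.8% (*Cort*) of genes had a smaller change than these 5. In this comparison only *Cort* kept its call under all 11 other settings, while *Sst*, *Cck*, *Tac1* and *Penk* were lower at Zt+16 with the groups scaled to *Slc32a1*.

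In *Snord116del*, 6 of the 10 precursors (*Sst*, *Npy*, *Cck*, *Tac1*, *Cort* and *Penk*) were higher at Zt+16 and 1 (*Pdyn*) was lower. Of all expressed genes, 25% were higher and 39.1% lower. Among genes under 1 kb (as *Sst*, *Npy*, *Cck* and *Cort* are) 73.0% were higher, and among those of 1 to 2 kb (as *Tac1* and *Penk* are) 51.3%. The count of higher precursors was thus near those shares. *Cort* was 15.8-fold higher, *Sst* 5.47-fold, *Tac1* 5.03-fold, *Cck* 4.97-fold, *Penk* 4.38-fold and *Npy* 2.55-fold, and *Pdyn* was 3.82-fold lower. The median log2 change was 1.73 for the 10 genes and -0.24 for all. *Cort* had the higher and *Pdyn* the lower value at Zt+16 under all 11 other settings, whereas the other 5 higher genes were lower with the groups scaled to *Slc32a1*, and *Npy* also with quantile normalization or without the length trend.

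Ratios between 2 precursors within a group do not change when all genes of the group are scaled by 1 factor. Quantile normalization and removal of the length trend are not of that kind and can change them. Among the 6 genes averaging 30 FPKM or more, the ratio of *Cck* to *Tac1* was 25.3 and 24.1 in WT and *Snord116del* at Zt+6 and 27.1 and 23.9 at Zt+16, a span of 1.14-fold. The ratio of *Sst* to *Penk* lay between 1.97 and 2.46, and that of *Sst* to *Cck* between 0.315 and 0.432. As deposited, these 4 genes thus kept their proportions to within 1.37-fold while each moved by over 4-fold across the groups. *Sst* and *Penk*, whose changes at Zt+6 were alike as deposited, differed there without the length trend. *Npy* did not move in proportion with them: the ratio of *Sst* to *Npy* was 1.46 and 1.15 at Zt+6 and 2.50 and 2.48 at Zt+16. *Cort* varied the most, with a ratio of *Sst* to *Cort* of 13.4 (WT) and 26.2 (*Snord116del*) at Zt+6 and of 8.20 and 9.07 at Zt+16.

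Transcript length moved with these differences across all genes. The longest annotated transcript has 566 bases for *Npy*, 599 for *Sst*, 677 for *Cort*, 798 for *Cck*, 1034 for *Tac1*, 1320 for *Crh*, 1449 for *Penk*, 1527 for *Vip*, 1894 for *Pnoc* and 2386 for *Pdyn*. Of the 726 genes under 1 kb, 43.8% were lower in *Snord116del* at Zt+6, with a median log2 change of -0.46, while the median was 1.04 for the 3361 genes of 4 kb and over. At Zt+16 the medians were 0.59 under 1 kb and 0.26 at 4 kb and over. Between the times in *Snord116del* they were 1.43 and -1.03. With the running median over length subtracted, the log2 change at Zt+6 was -0.96 for *Cort*, -0.54 for *Penk*, -0.50 for *Tac1*, -0.41 for *Cck*, -0.10 for *Sst*, 0.23 for *Npy* and 0.47 for *Pdyn*. Only *Cort* was then past the fold at Zt+6 among the 10 genes. Between the times in *Snord116del*, *Sst*, *Cck*, *Tac1*, *Cort* and *Penk* stayed called higher and *Pdyn* lower without the length trend, whereas *Npy* was at -0.13. The part of transcript length in the genotype differences was not tested beyond these values.

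**Figure D3:**
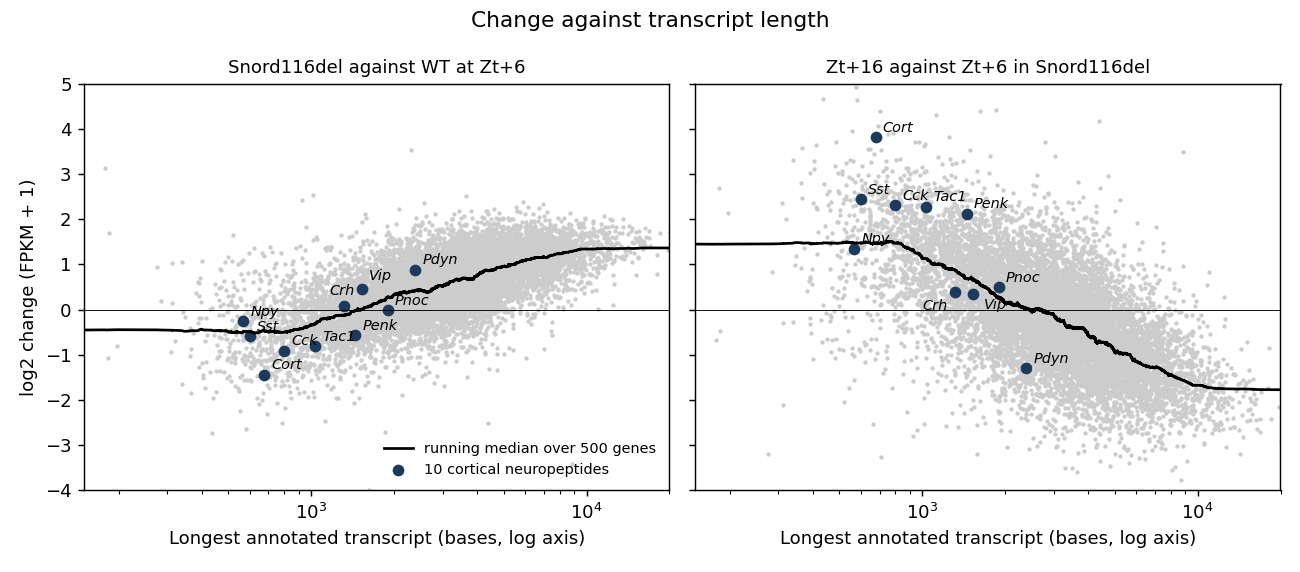
Log2 change of FPKM + 1 against the longest annotated transcript (bases, log axis) for *Snord116del* against WT at Zt+6 (left) and for Zt+16 against Zt+6 in *Snord116del* (right); grey points are expressed genes, blue points the 10 precursor genes, the line a running median over 500 genes, and changes beyond -4 or 5 lie outside the axes. *Sst* and *Npy* lie near the line on the left, *Cort* lies below it on the left and above it on the right, and *Pdyn* lies on the other side of the line from *Cort* in both panels. *Slc32a1* was itself lower in the left comparison and higher in the right one. With the groups scaled to it the changes of *Sst* reverse direction in both panels and that of *Cort* in the left one.

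GC content of the transcript differed among the 10 genes as well, from 42.2% for *Vip* and 44.9% for *Tac1* to 57.0% for *Cck* and 58.5% for *Cort*. Among the genes with a GC content above the upper quartile of 55.6% the median log2 change was 0.23 at Zt+6, and among those below the lower quartile of 46.2% it was 0.98. With the running median over GC subtracted, the change at Zt+6 was -1.68 for *Tac1*, -1.65 for *Cort*, -1.16 for *Cck*, -1.01 for *Penk*, -0.81 for *Sst* and -0.66 for *Npy*, each past the fold. Removing the trend on GC thus left more of the 10 genes lower at Zt+6 (6) than removing the trend on length (1). Of all 10297 expressed genes, 1870 were lower without the GC trend and 1380 without the length trend.

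**Figure D4:**
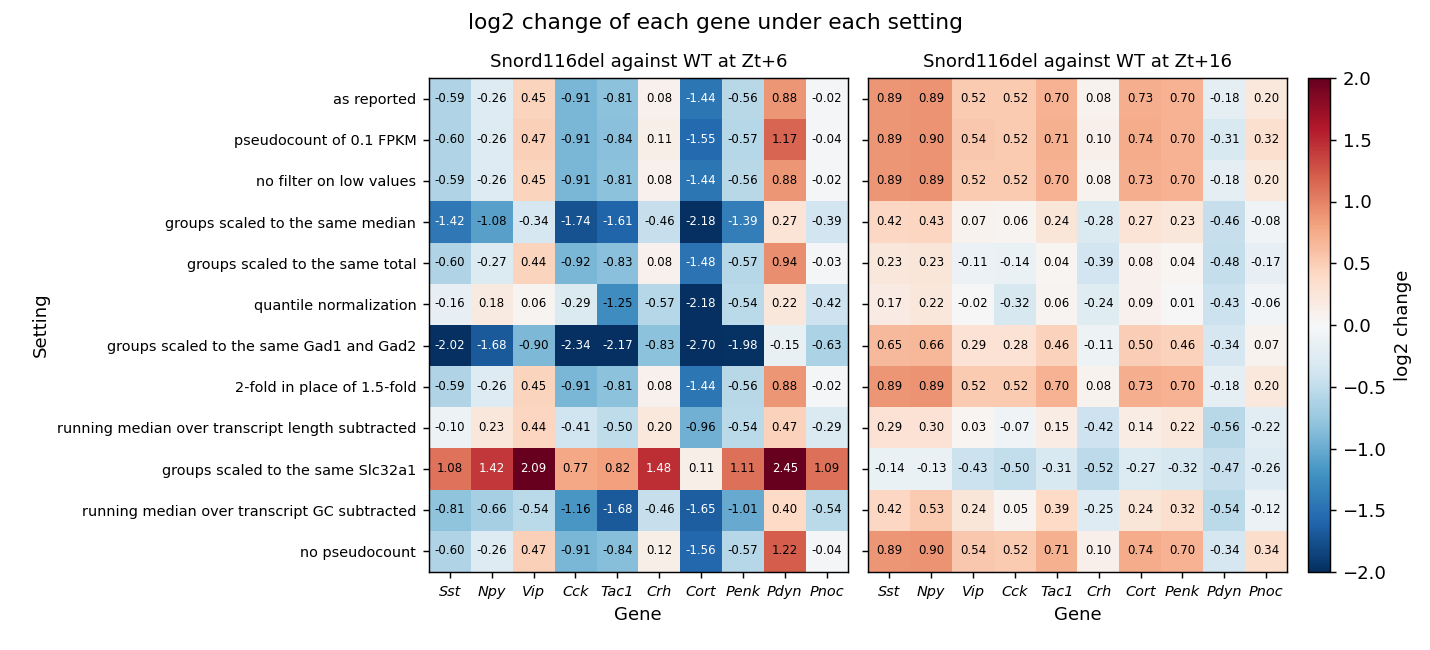
Log2 change of each of the 10 genes (columns) between *Snord116del* and WT at Zt+6 (left) and Zt+16 (right) as reported and under 11 other settings (rows), with the value written in each cell and colours cut at -2 and 2. *Cort* is at -0.96 or lower at Zt+6 in each row but the scaling to *Slc32a1*, where it is 0.11, and at Zt+16 the 5 higher genes are at 0.30 or below in 4 rows.

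Other precursors and the genes that act on them were counted from fixed lists. Their counts under other settings stand beside these splits of all 10297 expressed genes. At Zt+6, 1522 were higher and 2493 lower at the same median, and 168 and 4594 when scaled to *Gad1* and *Gad2*. Scaled to *Slc32a1* 9863 were higher and 35 lower, and without the length trend 1284 and 1380. At Zt+16, 124 were higher and 53 lower at the same median, and 100 and 72 without the length trend. Of 32 other neuropeptide precursors, 12 were expressed. At Zt+6, 4 of these were lower in *Snord116del* and 1 was higher, against 7.62% and 49.3% of all expressed genes. At the same median 7 were lower and 0 higher. Scaled to *Slc32a1*, where nearly all expressed genes were higher, 7 were higher and 0 lower. Without the length trend 3 were lower and 1 higher, with a median log2 change of 0.18. Of all expressed genes under 1 kb 43.8% were lower at Zt+6. *Tac2*, which codes for neurokinin B, was at 16.1 FPKM in WT and 5.66 FPKM in *Snord116del*, *Cartpt*, a satiety peptide, at 12.3 and 5.31 FPKM, and *Grp*, gastrin-releasing peptide, at 10.0 and 5.24 FPKM. At Zt+16, 7 of the 12 were higher and 1 was lower, against 19% and 0.204% of all expressed genes. At the same median 4 were higher and 1 lower, and without the length trend 2 and 1. *Gal*, one of the 7, reached a mean of 1 FPKM only through *Snord116del* at Zt+16. *Tac2* was then at 21.9 and 39.96 FPKM, *Cartpt* at 31.3 and 54.4 FPKM and *Grp*, which was not called, at 8.61 and 12.6 FPKM.

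The hormone precursors *Oxt* and *Avp* stood apart in 1 group. *Oxt*, oxytocin, was at 1.72, 1.18 and 1.91 FPKM in WT at Zt+6, *Snord116del* at Zt+6 and WT at Zt+16, and at 107 FPKM in *Snord116del* at Zt+16. *Avp*, vasopressin, was at 4.90, 1.56 and 2.60 FPKM in the same groups and at 76.6 FPKM in *Snord116del* at Zt+16. Of the 15 markers of claustrum, amygdala, hypothalamus and choroid plexus, 7 were expressed and 3 of them (*Oxt*, *Avp* and *Pomc*) were higher in *Snord116del* at Zt+16. *Hcrt*, *Pmch*, *Agrp* and *Trh*, of the same 15 markers, had a mean under 1 FPKM and were not highest in that group. *Gal* and *Ghrh*, of the other precursors, were highest in that group, at 2.90 and 1.28 FPKM, and *Ghrh* had a mean under 1 FPKM. *Trh* was at 0.920 FPKM in WT and 0.844 FPKM in *Snord116del* at Zt+16. *Oxt* and *Avp* are made mainly in the hypothalamus. They were high in the group in which all 10 precursors but *Pdyn* had their highest value. *Oxt*, *Avp* and *Pomc* are also in the list of other precursors. The part of neighbouring tissue in the values at Zt+16 was not tested.

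Of 23 genes for the receptors of these peptides and the binding protein of corticotropin-releasing hormone, 9 were expressed. At Zt+6, 5 were higher in *Snord116del* and 0 were lower, where 49.3% of all expressed genes were higher and 7.62% lower, so the share of higher receptors was near that of all genes. *Sstr2*, *Sstr4* and *Vipr1* reached a mean of 1 FPKM only through *Snord116del* at Zt+6. Their calls as higher there thus follow in part from that filter. The split was 4 and 0 at the same median and 0 and 4 when scaled to *Gad1* and *Gad2*. The somatostatin receptors *Sstr2* and *Sstr4* were at 0.691 and 0.958 FPKM in WT and at 3.05 and 3.80 FPKM in *Snord116del*. *Npy1r*, a receptor of neuropeptide Y, was at 1.85 and 4.33 FPKM, *Vipr1*, a receptor of vasoactive intestinal peptide, at 1.01 and 3.46 FPKM, and *Crhr1*, a receptor of corticotropin-releasing hormone, at 2.01 and 6.92 FPKM. The median log2 change of the 9 receptors was 0.90, against 0.57 for all genes. At Zt+16, 1 was higher, against 19% of all expressed genes. It was the nociceptin receptor *Oprl1*, at 3.94 FPKM in WT and 6.81 FPKM in *Snord116del*. *Sstr2* was then at 0.404 and 0.311 FPKM and *Sstr4* at 0.400 and 0.347 FPKM.

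Of 17 expressed genes for peptide processing and dense core granules, 9 were higher and 1 lower in *Snord116del* at Zt+6, a share of higher genes near the 49.3% of all expressed genes. Their median log2 change was 0.64, against 0.57 for all. The split became 2 and 2 at the same median and 0 and 8 when scaled to *Gad1* and *Gad2*. *Pcsk1* and *Pcsk2*, the prohormone convertases, were at 2.54 and 22.0 FPKM in WT and at 8.24 and 45.0 FPKM in *Snord116del* at Zt+6. *Cpe*, which trims the cut ends, was at 588 and 755 FPKM, a log2 change of 0.36 that was not called and lay below the median of all genes, and *Pam*, which amidates them, at 4.18 and 7.08 FPKM. At Zt+16, *Pcsk1* was at 0.579 and 0.840, *Pcsk2* at 24.5 and 38.7, *Cpe* at 761 and 968 and *Pam* at 6.23 and 5.92 FPKM. At that time 4 of the 17 were higher and 0 lower, against 19% and 0.204% of all expressed genes, and 0 and 0 at the same median.

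Markers of the cells that make the peptides did not move one way. Of 18 expressed interneuron markers, a list that leaves out the 10 precursors but holds *Tac2*, 8 were higher and 5 lower in *Snord116del* at Zt+6, against 49.3% and 7.62% of all expressed genes, and 2 and 6 at the same median. Of the 8, *Nos1* and *Prox1* reached a mean of 1 FPKM only through *Snord116del* at Zt+6, so their calls follow in part from that filter. At Zt+16, 3 were higher and 0 lower, against 19% and 0.204% of all expressed genes, and 0 and 0 at the same median. *Gad1* and *Gad2*, the enzymes that make GABA, were at 10.7 and 5.36 FPKM in WT and at 27.5 and 15.3 FPKM in *Snord116del* at Zt+6. *Slc32a1*, the vesicular GABA transporter of the same cells, went the other way, from 60.4 to 18.8 FPKM, and *Pvalb*, parvalbumin, from 29.8 to 18.8 FPKM. At Zt+16, *Gad1* was at 10.1 and 10.4, *Gad2* at 6.10 and 8.24, *Slc32a1* at 127 and 258 and *Pvalb* at 60.6 and 76.6 FPKM. Scaled to *Gad1* and *Gad2*, 9 of the 10 precursors were lower in *Snord116del* at Zt+6 and 0 higher. Of all 10297 expressed genes 4594 were then lower and 168 higher. Scaled to *Slc32a1*, 9 precursors were higher and 0 lower, where 9863 of all expressed genes were higher and 35 lower. The direction of the precursors thus depended on which marker was taken, as did the split of all expressed genes.

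Markers of striatal projection neurons, the other main source of *Penk*, *Tac1* and *Pdyn*, were measured in the same way. Of 11 such expressed genes, a list that leaves out the 10 precursors, 10 were higher in *Snord116del* at Zt+6 and 7 at Zt+16, and 0 were lower at either time, where 49.3% and 19% of all expressed genes were higher. At the same median 6 were higher and 1 lower at Zt+6 and 1 higher and 0 lower at Zt+16, and scaled to *Gad1* and *Gad2* 1 was higher and 2 lower at Zt+6. Without the length trend 3 were higher and 1 lower at Zt+6, and 3 and 0 at Zt+16. Their longest transcripts ran from 1774 bases (*Gpr6*) to 7717 bases (*Pde10a*). *Gpr6*, called higher at Zt+6, reached a mean of 1 FPKM only through *Snord116del* at that time, so its call follows in part from that filter. Of all expressed genes of 2 to 4 kb 45.45% were higher at Zt+6, and of those of 4 kb and over 81.0%. The dopamine receptors *Drd1a* and *Drd2* were at 1.65 and 1.20 FPKM in WT and at 5.15 and 4.13 FPKM in *Snord116del* at Zt+6, and at 1.53 and 1.12 against 2.99 and 1.56 FPKM at Zt+16. *Ppp1r1b*, the dopamine-regulated phosphatase inhibitor, was at 10.1 and 17.5 FPKM at Zt+6 and at 9.59 and 18.1 FPKM at Zt+16. *Adora2a*, the adenosine receptor of indirect-pathway neurons, had a mean under 1 FPKM, at 0.583 and 1.70 FPKM at Zt+6 and at 0.518 and 0.379 FPKM at Zt+16. At Zt+6 *Penk* and *Tac1* had a lower value where 10 of the 11 striatal markers were higher, while *Pdyn* was higher together with them. At Zt+16 *Penk* and *Tac1* were higher together with 7 of the 11, while *Pdyn* had a lower value. Of the 11 excitatory cortical markers, 7 were higher and 0 lower at Zt+6, and 1 higher and 5 lower when scaled to *Gad1* and *Gad2*. Without the length trend 3 of them were higher and 0 lower. *Emx1*, among the 7 and the 3, likewise reached a mean of 1 FPKM only through *Snord116del* at Zt+6. The part of tissue makeup in the values of *Penk*, *Tac1* and *Pdyn* was not tested.

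The profile of the precursors was compared with that of 2661 genes averaging 10 FPKM or more, by Euclidean distance of log2(FPKM + 1), each gene centred on its own mean over the 4 groups. The 5 nearest to the mean profile of the 10 genes were *Tubb4b* (distance 0.038), *Maea* (0.056), *Snap47* (0.057), *Psmc3* (0.058) and *Fhl1* (0.061). *Tubb4b*, a beta-tubulin, was at 56.4, 44.3, 87.6 and 121 FPKM in WT and *Snord116del* at Zt+6 and in WT and *Snord116del* at Zt+16. Among the 10 genes, *Npy* lay nearest to the mean profile (0.37) and *Pdyn* (2.03) and *Cort* (1.90) farthest. With 4 group values per gene, such likeness is a description only.

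Peaks of *116HG*, the long non-coding RNA of the *Snord116* locus, were then placed on the 10 genes. ChIRP pulls an RNA out of cross-linked chromatin with complementary biotinylated oligos, together with the DNA bound to it. The 5 libraries came from whole brain of adult mice: replicates 1 and 2 of *116HG* ChIRP in WT, *116HG* ChIRP in *Snord116del*, which lacks the target on the active chromosome, and non-specific control (NSC) oligos in both genotypes. The authors called peaks per library with MACS against a WT input library and filtered them on false discovery rate and fold over input.

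Of the 10 genes, 9 had a peak of WT *116HG* replicate 1 inside them or within 2 kb, against 93.6% of the 10165 expressed genes with a place in the annotation. None had a peak of replicate 2 (17.5% of all), of WT NSC (2.53%) or of *Snord116del* *116HG* (2.86%). *Crh* alone had a peak of *Snord116del* NSC (10.6%), at 19593924 to 19594832 with a fold over input of 21.0, and no *116HG* peak. The shares at these genes were thus near those of all genes. Replicate 1 peaks were more widespread at abundant genes: 91.6% of genes from 1 to 10 FPKM had one, 99.4% from 10 to 100 FPKM and 99.1% from 100 FPKM up.

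The 28 replicate 1 peaks lay over exons for the most part. Of them 25 touched an exon, and 79.7% of their bases were exonic, while exons make up 15.5% of the bases of the 9 genes. Over the whole replicate 1 list 73.5% of peaks touched an exon, against 3.41% in replicate 2, 4.35% in WT NSC, 17.6% in *Snord116del* *116HG* and 32.5% in *Snord116del* NSC. *Sst* had 2 peaks, one over each of its 2 exons, with folds over input of 267 and 222. *Npy* had one over each of its 4 exons, with folds from 230 to 246, and another of 71.8 in an intron. *Cck* had the highest fold of the 10 genes, 338, over its last exon, at 121398935 to 121399330.

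*Cort* had 2 peaks (folds of 71.8 and 51.3), one in each exon, *Penk* had 3 (82.1 to 236), *Vip* 4 (82.1 to 164), *Pdyn* 4 (27.6 to 205), *Tac1* 2, both in its last exon (51.3 and 113), and *Pnoc* 1 (41.0). The median fold was 114 over the 28 peaks and 55.3 over all replicate 1 peaks. Such peaks lay at genes that were lower, at the gene that was higher and at 4 of the 5 genes not called in *Snord116del* at Zt+6. WT *116HG* replicate 2, the second library of that genotype and those oligos, had 0 peaks in or within 2 kb of the 10 genes. None of the 28 peaks was thus found again in that window. The paper matched peaks of the 2 replicates over a wider window of 10 kb, which was not searched here.

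**Figure D5:**
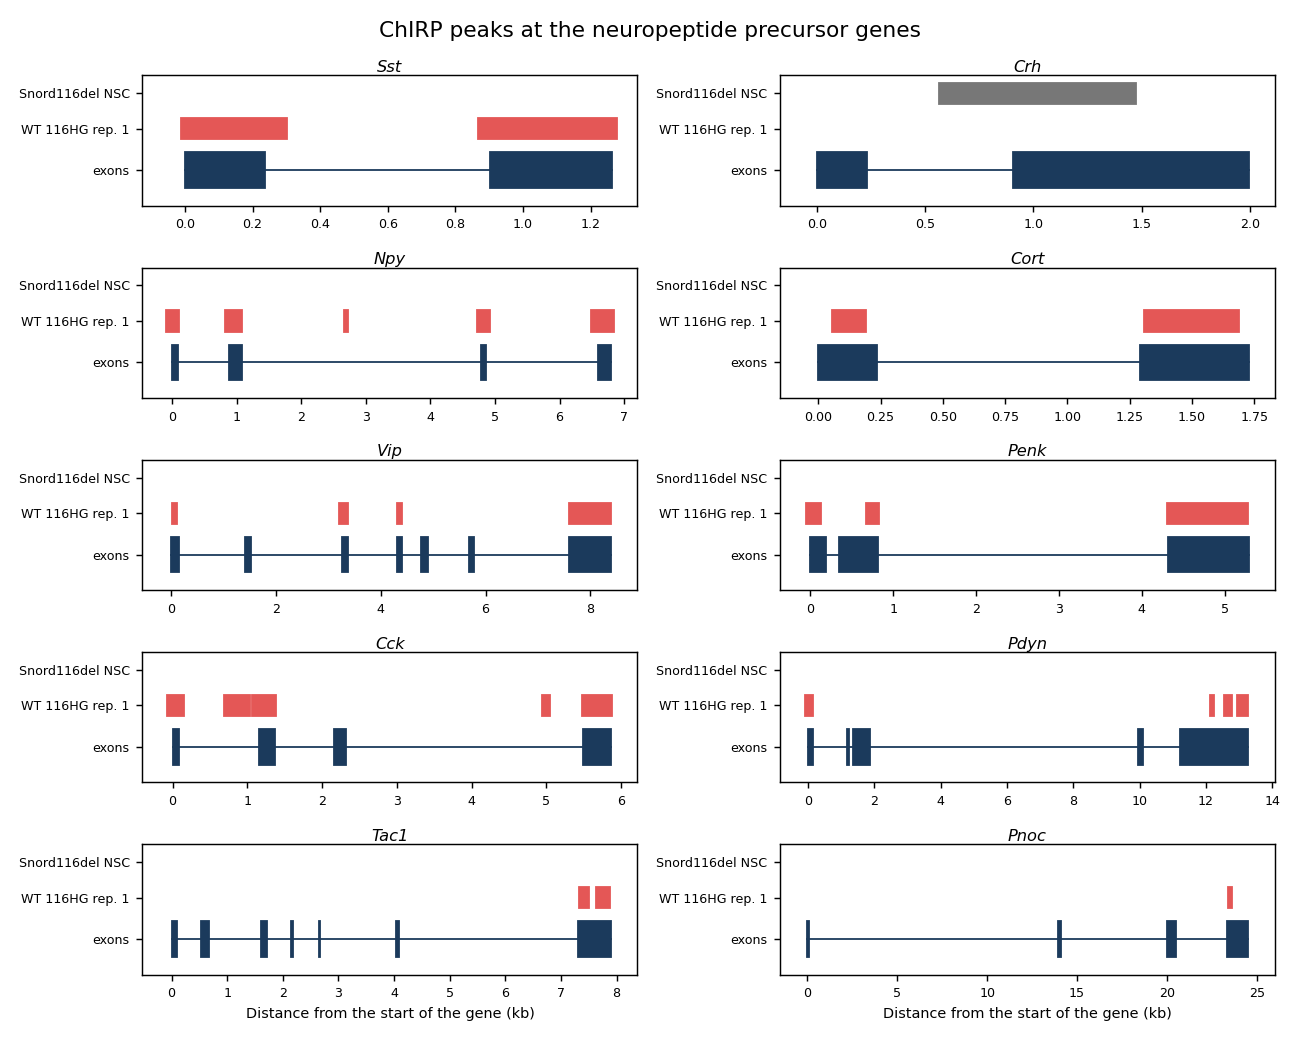
Exons (blue blocks, merged over annotated transcripts) of the 10 genes and the ChIRP peaks on them, drawn from each gene's start site in kb, for WT *116HG* replicate 1 (red) and *Snord116del* NSC (grey); the other 3 libraries have no peak at these genes. Of the 28 red peaks 25 touch an exon, and *Crh* has a grey peak and no red one.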

How the data were processed

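RNA-seq of 9 mice in 4 groups and ChIRP-seq peak lists of 5 libraries were used. Per the labels and methods, the authors aligned RNA reads to mm9 with TopHat2 2.0.5 and deposited 1 Cuffdiff 2.0.2 FPKM per gene and group. The table has no value per mouse, so the fold rule stated for that case was used in place of a test, and 0 other columns with values of single samples were set aside. Its 3 columns of the authors' own comparisons (a fold change, a q-value and a call) were not used. For the peaks, the authors aligned reads with Bowtie2 2.0.0, called peaks with MACS 1.4.2 and deposited the fold over input of each peak, a ratio; the list of WT *116HG* replicate 2 holds positions only. How groups were scaled within Cuffdiff is not given in the sources used here.

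Transcript length, GC content, exons and loci came from GENCODE annotation of NCBIM37 (mm9), matched by symbol: 98.7% of the genes averaging 1 FPKM or more had a length and 96.6% a GC content. Promoters came from RefSeq (GRCm38.p6), and no coordinate was moved between builds. The members and gene lists were chosen with earlier results of these data known. Named with values were every member, called receptors, set genes of the marker and processing lists, the 5 other precursors with the highest mean FPKM and the 5 genes nearest in profile. *Ttr*, *Pomc*, *Dlx5*, *Gal* and *Ghrh* were named after their values were seen. The 11 alternatives, run on members and on gene lists, covered the pseudocount, filter, fold, scale and trends on length and GC; 3 of them (scaling to *Slc32a1*, the GC trend and no pseudocount) were added after seeing the data. The fold rule and the running median over length were tested on simulated data, and the other steps were not. Computing used numpy 2.4.6, pandas 2.3.3 and matplotlib 3.10.9 under Python 3.11.15.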

Additional observations from a re-analysis of the deposited data

How the results depend on the processing

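No paired analysis was possible because the table holds no value per mouse, and for the same reason leaving out each mouse was not run. The counts below are of the 10 precursors called, and were 5 at Zt+6, 5 at Zt+16, 5 between times in WT and 7 in *Snord116del* as reported. Between genotypes at Zt+16 the count was 0 with the same median, the same total, quantile normalization, a fold of 2, the length trend removed, the GC trend removed or scaling to *Slc32a1*, and 2 with scaling to *Gad1* and *Gad2*. At Zt+6 it was 2 with quantile normalization, 1 with a fold of 2 or without the length trend, and 9 with either scaling to interneuron markers, all lower with *Gad1* and *Gad2* and all higher with *Slc32a1*. Between times in WT it was 1 with the same total, quantile normalization or a fold of 2, and 2 without the length trend. Directions reversed for *Npy* between times in *Snord116del* (-0.36 with quantile normalization, -0.13 without the length trend) and for *Pdyn* at Zt+6 (-0.15 with *Gad1* and *Gad2*). *Slc32a1* itself moved far: its log2 change between genotypes was -1.63 at Zt+6 and 1.02 at Zt+16. Between times it was 1.06 in WT and 3.71 in *Snord116del*. Scaling to it moves every gene the other way by about as much. Scaling to *Slc32a1* reversed *Sst* (1.08), *Cck* (0.77), *Tac1* (0.82) and *Cort* (0.11) at Zt+6. At Zt+16 it reversed *Sst* (-0.14), *Npy* (-0.13), *Tac1* (-0.31), *Cort* (-0.27) and *Penk* (-0.32). Between times in WT it reversed *Sst* (-0.10), *Cck* (-0.19), *Tac1* (-0.29) and *Penk* (-0.21). In *Snord116del* it reversed *Sst* (-1.32), *Npy* (-2.42), *Cck* (-1.46), *Tac1* (-1.42) and *Penk* (-1.64). The scale also set the split of all called genes. At Zt+6, 86.6% of them were higher as reported, 37.9% with the same median, 49.7% with quantile normalization, 3.53% with *Gad1* and *Gad2*, 99.7% with *Slc32a1*, 48.2% without the length trend and 45.6% without the GC trend. At Zt+16 it was 98.9% as reported, 70.1% with the same median, 24.6% with the same total, 42.1% with quantile normalization and 1.73% with *Slc32a1*. The cause of these shifts was not tested.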

Other observations

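The receptors and the other gene lists were also compared between the times. In *Snord116del* 25% of all expressed genes were higher at Zt+16 and 39.1% lower, and in WT 5.71% and 10.3%. Of all 10297 genes in *Snord116del*, 3593 were higher and 2713 lower at the same median, and 851 and 6831 with the same total. Scaled to *Gad1* and *Gad2* it was 5223 and 1495, and scaled to *Slc32a1* 20 and 10179. Scaled to *Slc32a1* in WT it was 17 and 7400. Among expressed genes under 1 kb 73.0% were higher in *Snord116del*. In *Snord116del*, 8 of the 12 other expressed precursors were higher at Zt+16 and 0 lower, 9 and 0 with the groups scaled to the same median and 2 and 7 when scaled to *Slc32a1*. Of the 8, *Gal* and *Npw* counted as expressed only through *Snord116del* at Zt+16. In the same comparison 4 of the 9 receptors and binding protein (*Sstr2*, *Sstr4*, *Vipr1* and *Crhr1*) were lower at Zt+16 and 0 higher. These 4 were also lower at the same median, where 2 others (*Sstr3* and *Oprl1*) were higher, and when scaled to *Gad1* and *Gad2*, where 4 others (*Sstr3*, *Cckbr*, *Crhbp* and *Oprl1*) were higher. With the same total 7 of the 9 were lower, and scaled to *Slc32a1* all 9. *Sstr2*, *Sstr4* and *Vipr1* counted as expressed only through *Snord116del* at Zt+6, so their calls as lower follow in part from that filter. In WT, 1 of the 12 other precursors (*Cartpt*) was higher at Zt+16 and 1 (*Avp*) lower, and 0 of the 9 receptors passed the fold. Of the 18 interneuron markers, 5 were higher and 8 lower at Zt+16 in *Snord116del*, shares near those of all expressed genes. Of the 8, *Nos1* and *Prox1* counted as expressed only through *Snord116del* at Zt+6. The split was 8 and 6 at the same median, 9 and 3 when scaled to *Gad1* and *Gad2* and 0 and 17 when scaled to *Slc32a1*. In WT 3 were higher and 1 lower. *Slc32a1*, *Pvalb* and *Dlx5*, a transcription factor of interneurons, were higher at Zt+16 in both genotypes as deposited, but *Pvalb* and *Dlx5* were lower in *Snord116del* when scaled to *Slc32a1*. *Gad1* and *Gad2* were lower at Zt+16 in *Snord116del*, at 10.4 and 8.24 FPKM against 27.5 and 15.3 FPKM at Zt+6, and not called in WT. Of the 11 striatal markers, 2 were higher and 6 lower at Zt+16 in *Snord116del*, 2 and 4 at the same median, 4 and 2 when scaled to *Gad1* and *Gad2* and 0 and 11 when scaled to *Slc32a1*, and 0 were higher and 1 lower in WT. Of the 17 processing genes, 3 were higher and 3 lower in *Snord116del*, a split that became 5 and 3 at the same median, 1 and 14 with the same total, 13 and 2 when scaled to *Gad1* and *Gad2* and 0 and 17 when scaled to *Slc32a1*. In WT 2 of them were higher and 2 lower. Scaled to *Slc32a1*, 0 of the interneuron, striatal and processing genes were higher in WT, and 11, 9 and 12 of them were lower. Of the 7 expressed markers of neighbouring regions, 2 were higher and 2 lower in *Snord116del* at Zt+6, against 49.3% and 7.62% of all expressed genes. The 2 comparisons between times share no group with each other, and neither has a replicate check.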
